A study of Mus musculus with 12 samples.

Results

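The genes described here are 43 DNA replication genes, a list of names chosen by function, by a rule that uses no measured value but with earlier results of these data known, out of 18929 genes listed in the deposited tables. All 43 were listed for both mutants, and all 43 passed the filter on low counts in every comparison, so each member is accounted for below. Their transcripts were counted by RNA-Seq of poly(A) RNA in murine enteroids, which are epithelial cultures grown from intestinal crypts, here from the jejunum, in ENR medium (EGF, Noggin and R-Spondin 1) for 5 days. The control enteroids came from mice that the study calls villin-Cre control in its results and wild-type in its methods. The Hdac1-deficient and Hdac2-deficient enteroids came from villin-Cre mice with floxed Hdac1 or Hdac2, with all groups on a mixed C57BL/6J, 129SV and CD1 background. These are called Hdac1 mutant and Hdac2 mutant libraries or enteroids hereafter. Villin-Cre acts in the intestinal epithelium, so each gene was deleted in the cells that make up the culture. There were 4 libraries in each group, 12 in all, and the age of the mice was not given in the sources used here. The methods give 1 mouse of each genotype as the origin of the crypts, so separate mice behind the 4 libraries are not shown, p-values measure the spread between these libraries, which may be technical, and genotype cannot be told apart from the individual animal or its culture.

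DNA is copied from origins that are first licensed and then fired. The origin recognition complex, CDC6 and CDT1 load the MCM2-7 ring onto DNA in G1, and CDC45, GINS and MCM10 turn that ring into an active helicase at the start of S phase. Polymerase alpha with primase lays down primers, and polymerases delta and epsilon extend them with the PCNA clamp. FEN1 and DNA ligase 1 join the lagging strand, while other enzymes supply deoxynucleotides and restore nucleosomes and DNA methylation. Many of these genes are classical targets of E2F factors, and in the intestine they are transcribed mainly in the dividing cells of the crypt. HDAC1 and HDAC2 are histone deacetylases that act as the catalytic subunits of several corepressor complexes.

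The depth lay between 20693200 and 30658628 counts per library, and values are given as CPM, counts relative to the library size after scaling with TMM factors. Hdac1 had 87.5 to 94.4 CPM in the control libraries and 3.37 to 5.09 CPM in the Hdac1 mutant libraries (log2 fold change -4.40 ± 0.08 SE). Hdac2 had 132 to 141 CPM in control and 73.2 to 78.8 CPM in the Hdac2 mutant libraries (-0.84 ± 0.04), and the groups did not overlap for either gene. Hdac2 counts thus fell but were not lost, and counts per gene do not show which exons the remaining reads came from. By RT-PCR, Western blot and immunofluorescence, the study reported each deletion in RNA and in protein. All 10 epithelial markers were listed, and Epcam, a surface protein of epithelial cells, stood between 1161 and 1298 CPM in the 12 libraries. Of the markers of other cell types, 4 of 10 for mesenchyme, 4 of 9 for immune cells and 3 of 6 for endothelium were listed. Those listed for both mutants (3, 4 and 3) summed to at most 4.88 CPM per list in any library. Control library 1 lay further from control libraries 2 and 3 than any other pair of libraries of a group.

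Most of the replication genes had fewer transcripts in both mutants. In Hdac1 mutant enteroids 40 of 43 were lower than control, 1 was higher and 2 did not pass the test, and in Hdac2 mutant enteroids 42 were lower and 1 was higher (edgeR's quasi-likelihood test, adjusted p of at most 0.05). Of all genes tested, 31.9% were lower and 32.7% higher in Hdac1 mutant enteroids, and 30.9% were lower and 31.4% higher in Hdac2 mutant enteroids, or 64.6% and 62.3% in either direction. The median log2 fold change of the 43 genes was -0.30 in Hdac1 mutant enteroids (a 19.1% decrease) and -0.42 in Hdac2 mutant enteroids (a 25.5% decrease), while the median of all genes tested was 0.00 in both. No member passed a 2-fold change in either mutant, a size that 10.6% and 8.3% of all genes tested passed. The same 4 control libraries served both comparisons, so the 2 sets of values are not independent of each other.

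Summed over the 43 genes, the 4 control libraries stood at 3875, 3811, 3833 and 3780 CPM. The 4 Hdac1 mutant libraries stood at 3055, 3137, 3053 and 2877 CPM, and the 4 Hdac2 mutant libraries at 2859, 2943, 2838 and 2834 CPM. Every mutant library thus lay below every control library, and the mutant groups overlapped with each other, with Hdac1 mutant library 4 as low as the Hdac2 mutant libraries. Gene by gene, the CPM of all 4 Hdac1 mutant libraries lay below all 4 control libraries for 35 members (30.1% of all genes tested), and above them for 1 member (28.4%). In Hdac2 mutant enteroids the groups were apart downwards for 42 members (28.3%) and upwards for 0 (27.9%). The spread between libraries was small, with coefficients of variation within groups from 0.98% to 12.6% over the 43 genes. In bulk RNA such as this, fewer cells of a type and less RNA per cell cannot be told apart. These values are of RNA and do not measure DNA replication. By BrdU labelling, the study reported no significant change in proliferation in the mutant enteroids.

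**Figure D1:**
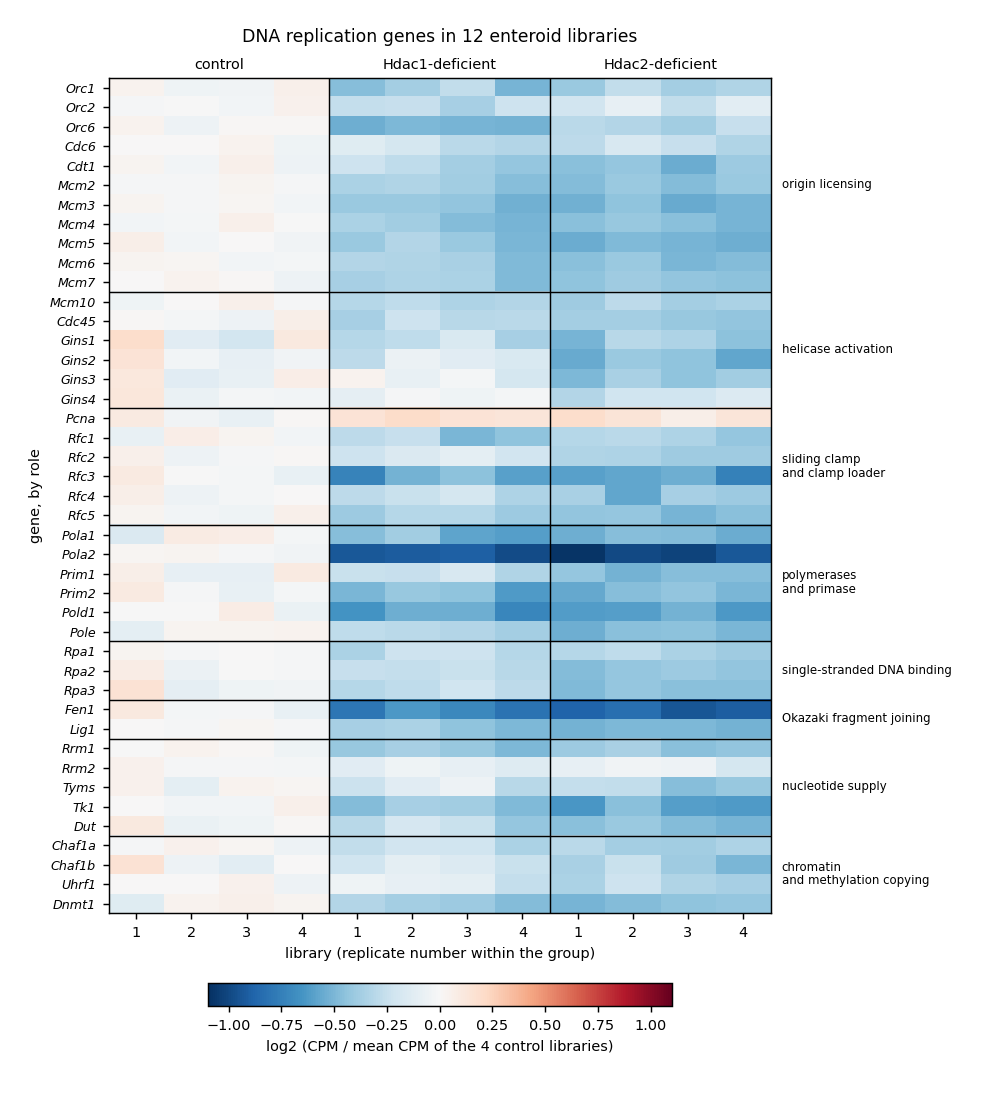
Level of each of the 43 genes (rows, grouped by role) in each of the 12 libraries (columns), as log2 of CPM over the mean of the 4 control libraries, with blue for lower and red for higher. The mutant columns are blue in nearly every row, most deeply for Pola2 and Fen1, and the Pcna row alone is red in all 8 mutant libraries.

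Markers of crypt stem cells and of enterocytes moved as well. Of 8 crypt stem cell markers, 7 fell in Hdac1 mutant and 8 in Hdac2 mutant enteroids, and their summed level was 4071 to 4268 CPM in control, 2343 to 2708 CPM in Hdac1 mutant and 2119 to 2302 CPM in Hdac2 mutant libraries. Olfm4 alone gave 2702 ± 103 CPM (mean ± SD, n = 4) of this sum in control, and over the 8 markers the median log2 fold change was -0.58 and -0.43. All 12 enterocyte markers rose in both mutants, with summed levels of 10458 to 11089 CPM in control, 20149 to 23062 CPM in Hdac1 mutant and 16523 to 18466 CPM in Hdac2 mutant libraries. For scale, 31.9% of all genes tested fell and 32.7% rose in Hdac1 mutant enteroids, and 30.9% fell and 31.4% rose in Hdac2 mutant enteroids. The 10 epithelial markers summed to 7970 to 8227 CPM in control, 8461 to 8657 CPM in Hdac1 mutant and 9865 to 10211 CPM in Hdac2 mutant libraries. The part of these shifts in the lower level of the replication genes was not tested.

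**Figure D2:**
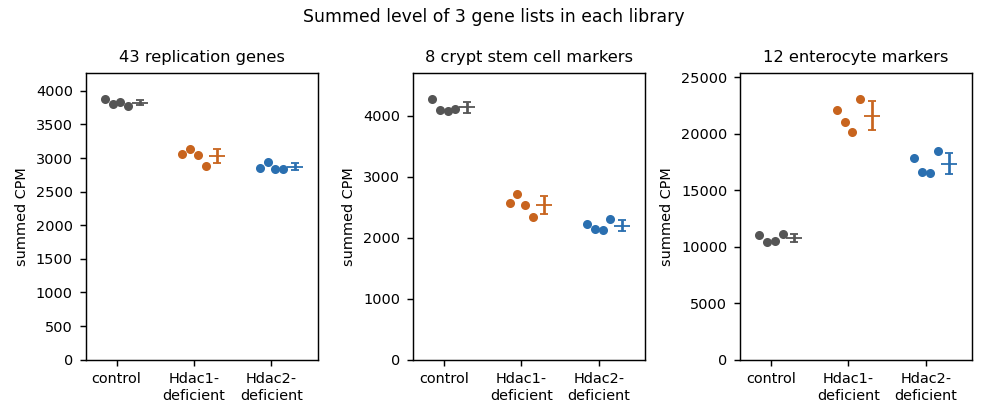
Summed CPM of the 43 replication genes, of 8 crypt stem cell markers and of 12 enterocyte markers in each library (points), with the mean and SD of 4 libraries beside them and each axis starting at 0. The replication genes and the stem cell markers are lower, and the enterocyte markers higher, in all 8 mutant libraries than in the 4 control libraries.

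Short runs of letters were searched for around the start sites of the members, and none was found in every member with a window. RefSeq start sites (GRCm38.p6) were given for 36 of the 43 genes, with a window from 250 bases before to 50 bases after the start, and were not used here for Gins1, Gins2, Gins4, Mcm4, Pole, Prim2 and Rfc2. The letters that E2F factors are known to bind (TTTCCCGC, TTTCGCGC, TTTGCCGC or TTTGGCGC on either strand, where 2 matches may overlap) were in the windows of 14 of 36 members, or 38.9%, against 4.6% of the 10087 tested genes with a window and 2.6% of all 27025 genes. The letters CCAAT, the core of the NF-Y site, on either strand were in 24 members (66.7%), against 43% of the tested genes. The letters TTTGAA or TTCGAA, those of the cell cycle homology region, on either strand were in 7 members (19.4%), against 16.4% of the tested genes. The GC content of the windows was alike, with medians of 59.2% for the members and 60.3% for the tested genes.

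These 6 promoters are printed to show these letters in a pair of helicase genes that hold several E2F matches, in the catalytic polymerase subunit, in the member that fell least among those called lower in both mutants, and in the pair of members that fell most. Each is the 250 bases before the RefSeq start, 5′ to 3′ on the strand of the gene, with the E2F and CCAAT letters in capitals.
Mcm5, chr8:75109259-75109508, plus strand: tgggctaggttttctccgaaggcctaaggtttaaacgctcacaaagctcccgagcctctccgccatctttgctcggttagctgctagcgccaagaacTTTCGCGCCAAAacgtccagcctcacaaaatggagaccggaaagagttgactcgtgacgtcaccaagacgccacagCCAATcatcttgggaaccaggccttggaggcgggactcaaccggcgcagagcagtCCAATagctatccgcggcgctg
Mcm6, chr1:128359706-128359955, minus strand: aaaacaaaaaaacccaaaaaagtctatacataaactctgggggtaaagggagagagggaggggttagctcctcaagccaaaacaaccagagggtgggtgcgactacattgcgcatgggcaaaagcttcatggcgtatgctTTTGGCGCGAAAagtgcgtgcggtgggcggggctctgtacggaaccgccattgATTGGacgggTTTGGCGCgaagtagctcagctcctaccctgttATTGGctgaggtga
Pola1, chrX:93632156-93632405, minus strand: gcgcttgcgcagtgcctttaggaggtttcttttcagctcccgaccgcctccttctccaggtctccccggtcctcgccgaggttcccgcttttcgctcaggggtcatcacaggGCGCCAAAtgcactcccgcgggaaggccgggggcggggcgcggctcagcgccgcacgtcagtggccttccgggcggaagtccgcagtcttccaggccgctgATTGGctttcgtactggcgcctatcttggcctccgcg
Rrm2, chr12:24708004-24708253, plus strand: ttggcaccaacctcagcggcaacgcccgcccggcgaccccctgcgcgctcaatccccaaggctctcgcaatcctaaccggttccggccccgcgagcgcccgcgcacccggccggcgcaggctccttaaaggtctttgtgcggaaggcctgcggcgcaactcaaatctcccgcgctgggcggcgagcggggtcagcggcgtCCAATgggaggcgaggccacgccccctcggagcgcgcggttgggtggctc
Fen1, chr19:10204394-10204643, minus strand: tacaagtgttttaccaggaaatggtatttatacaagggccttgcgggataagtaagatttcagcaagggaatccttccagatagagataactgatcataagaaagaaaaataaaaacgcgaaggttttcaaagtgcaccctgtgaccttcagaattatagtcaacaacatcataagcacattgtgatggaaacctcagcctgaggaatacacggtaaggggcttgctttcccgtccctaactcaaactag
Pola2, chr19:5964207-5964456, minus strand: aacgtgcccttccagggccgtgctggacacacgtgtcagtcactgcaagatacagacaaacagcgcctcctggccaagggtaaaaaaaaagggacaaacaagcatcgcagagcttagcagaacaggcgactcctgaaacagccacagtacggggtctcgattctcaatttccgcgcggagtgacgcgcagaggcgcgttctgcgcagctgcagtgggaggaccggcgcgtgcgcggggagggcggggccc
In Mcm5 and in Mcm6 a pair of E2F matches on opposite strands overlapped, and each of these promoters also held CCAAT letters. Rrm2 held a single CCAAT, and the windows of Fen1 and Pola2 held neither kind of letters. The whole Fen1 window (10204344 to 10204643) lay before the start of Fen1 in GENCODE (10204169). The bases around that start were therefore not searched. Among the 14 members with E2F letters the median change on the log2 scale was -0.38 in Hdac1 mutant and -0.46 in Hdac2 mutant enteroids, and the 22 members without them had -0.28 and -0.40. Their ranges overlapped, from -0.60 to -0.05 and from -0.60 to -0.25 with the letters, and from -0.92 to 0.17 and from -1.0 to 0.14 without them. A match is a description of the letters and not a measured binding site.

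The 11 licensing genes all fell in both mutants, as did 31.9% and 30.9% of all genes tested. Their medians on the log2 scale were -0.37 for Hdac1 mutant and -0.43 for Hdac2 mutant enteroids. Orc1, an ATPase subunit of the origin recognition complex, had 14.9, 14, 14.1 and 15.1 CPM in control, 10.5, 11.2, 12 and 10.2 CPM in Hdac1 mutant and 10.9, 12, 11.2 and 11.5 CPM in Hdac2 mutant libraries. It fell by 0.39 ± 0.07 (adjusted p = 3.8e-05) and 0.34 ± 0.06 (adjusted p = 8.0e-05) on the log2 scale, with no overlap between control and either mutant. Orc2 fell by 0.27 and 0.16, and Orc6, the subunit that helps recruit the MCM ring, by 0.50 and 0.30.

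Orc6 was the only member that was lower in Hdac1 mutant than in Hdac2 mutant enteroids in the direct comparison. Its counts were 20.5, 21.2, 20.9 and 20.8 CPM in Hdac1 mutant libraries and 24.2, 23.8, 22.9 and 25 CPM in Hdac2 mutant libraries, against 30.6, 28.7, 30.0 and 30.0 CPM in control. The 3 groups did not overlap, and the difference between the mutants was -0.20 ± 0.05 (adjusted p = 0.0011). Orc6 shares exon sequence with Vps35, on the opposite strand, at up to 237.9 CPM, which had log2 fold changes of -0.33 and -0.06 and a direct difference of -0.27 with the same sign as that of Orc6. Cdc6, the ATPase that loads MCM2-7 together with CDT1, fell from 32.1 to 33.9 CPM in control to 26.5 to 30.1 CPM (log2 fold change -0.22 ± 0.05) and 26.3 to 29.3 CPM (-0.25 ± 0.05). Cdt1, its partner in loading, fell from 81.9 to 88.5 CPM to 63.6 to 73.0 CPM (-0.31 ± 0.04) and to 58.5 to 64.6 CPM (-0.45 ± 0.04).

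The 6 genes of the MCM2-7 ring fell almost in step. Mcm3 had 172, 166, 170.1 and 164 CPM in control, 127, 127, 125 and 117 CPM in Hdac1 mutant and 117, 124, 114 and 118 CPM in Hdac2 mutant libraries. Mcm5 had 195, 182, 187 and 181 CPM in control, 140.0, 149, 141 and 131 CPM in Hdac1 mutant and 128, 133, 131 and 128 CPM in Hdac2 mutant libraries. For each of the 6 genes every mutant library lay below every control library, which held for 30.1% and 28.3% of all genes tested. The log2 fold changes ran only from -0.43 (Mcm3) to -0.36 (Mcm6) in Hdac1 mutant enteroids and from -0.51 (Mcm5) to -0.42 (Mcm7) in Hdac2 mutant enteroids, with standard errors of 0.03 to 0.04. Mcm2, Mcm4 and Mcm7 lay between these, at -0.37, -0.42 and -0.37 in Hdac1 mutant enteroids, and Mcm2, Mcm3, Mcm4 and Mcm6 at -0.43, -0.50, -0.45 and -0.45 in Hdac2 mutant enteroids. The order of the 6 levels per kilobase of exon was the same in the 3 groups. Mcm6 was highest (53.6 CPM per kb in control) and Mcm2 lowest (21.1), a ratio of 2.54 in control, 2.56 in Hdac1 mutant and 2.51 in Hdac2 mutant enteroids.

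The 6 genes that activate the ring held the largest differences between the mutants. Of these, 4 of 6 fell in Hdac1 mutant and 6 of 6 in Hdac2 mutant enteroids, against 31.9% and 30.9% of all genes tested. Their medians were -0.21 and -0.39. Mcm10, which helps to start unwinding, fell by 0.30 ± 0.04 and 0.34 ± 0.04, and Cdc45, which joins MCM2-7 and GINS in the helicase, by 0.28 ± 0.05 and 0.39 ± 0.05. Neither differed between the mutants by the test (adjusted p = 0.50 and 0.090).

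The GINS complex has 4 subunits, and 2 of them were the least changed members in Hdac1 mutant enteroids. Gins2 had 34.3, 30.3, 29.1 and 30.1 CPM in control, 25.3, 29.6, 28.3 and 27.5 CPM in Hdac1 mutant and 21, 23.3, 22.7 and 20.8 CPM in Hdac2 mutant libraries. Gins3 had 9.21, 7.81, 8.03 and 8.91 CPM in control, 8.73, 8.03, 8.38 and 7.42 CPM in Hdac1 mutant and 6.04, 6.64, 6.25 and 6.51 CPM in Hdac2 mutant libraries. Gins4 had 31.4, 27.3, 28.4 and 28.2 CPM in control, 26.9, 28.6, 27.9 and 28.4 CPM in Hdac1 mutant and 23.1, 24.7, 24.7 and 25.9 CPM in Hdac2 mutant libraries. For these 3 genes the Hdac2 mutant libraries lay below all control and all Hdac1 mutant libraries, while the Hdac1 mutant libraries overlapped with control.

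Gins3 and Gins4 did not pass the test in Hdac1 mutant enteroids, with log2 fold changes of -0.05 ± 0.08 (adjusted p = 0.63) and -0.03 ± 0.05 (adjusted p = 0.58). Gins2 fell by 0.15 ± 0.06 there (adjusted p = 0.033), a call that is lost without control library 1 or without Hdac1 mutant library 1 or 4 (adjusted p = 0.13, 0.13 and 0.064). In Hdac2 mutant enteroids the same 3 genes fell by 0.49 ± 0.06, 0.41 ± 0.08 and 0.22 ± 0.05. Compared directly, Gins3 was higher in Hdac1 mutant than in Hdac2 mutant enteroids by 0.36 ± 0.08 (adjusted p = 0.0011), Gins2 by 0.34 ± 0.06 (adjusted p = 4.1e-05) and Gins4 by 0.19 ± 0.05 (adjusted p = 0.0044). Gins1 fell by 0.26 ± 0.08 and 0.39 ± 0.08, and its direct difference of 0.13 ± 0.08 did not pass the test (adjusted p = 0.21). The counts of Gins2 share exon sequence with Gse1, on the opposite strand, whose log2 fold changes were 0.04 and 0.02, and whether the counting used strand was not given in the sources used here.

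**Figure D3:**
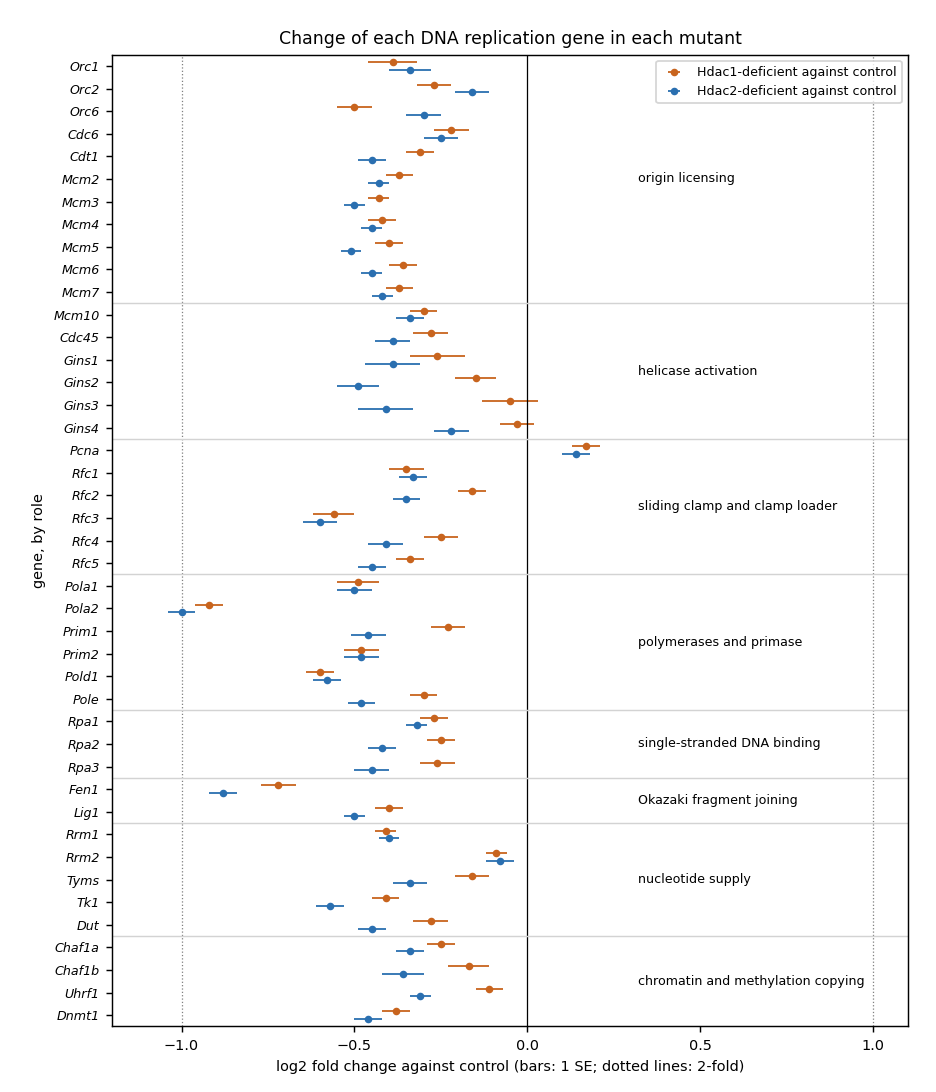
Log2 fold change against control (horizontal axis) of each of the 43 genes (vertical axis, grouped by role) in Hdac1-deficient (orange) and Hdac2-deficient (blue) enteroids, with bars of 1 SE and dotted lines at a 2-fold change. Nearly all points lie left of 0 and right of the 2-fold line, Pola2 reaches -0.92 and -1.0, Gins3 and Gins4 lie at 0 within 1 SE in Hdac1-deficient enteroids, and Pcna lies to the right of 0 in both.

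The clamp gene Pcna rose in both mutants, and the 5 genes of the loader (replication factor C) fell. Over all genes tested, 32.7% and 31.4% rose, and 31.9% and 30.9% fell. Pcna had 208, 189, 183 and 196 CPM in control, 214, 222, 215 and 212 CPM in Hdac1 mutant and 222, 213, 203 and 212 CPM in Hdac2 mutant libraries. The Hdac1 mutant libraries lay above all control libraries, and the Hdac2 mutant libraries overlapped with control library 1. The log2 fold changes were 0.17 ± 0.04 (adjusted p = 4.8e-04) and 0.14 ± 0.04 (adjusted p = 0.0017). It was also the most abundant member per kilobase of exon, at 80.7 CPM per kb in control.

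The rise of Pcna is uncertain because of a near-identical copy. The processed pseudogene Pcna-ps2, on chromosome 19, shares 565 of its 751 words of 31 bases (75.2%) with Pcna transcripts. It had 40.1, 36.6, 32.4 and 34.2 CPM in control, 17.4, 19.3, 17.9 and 17.6 CPM in Hdac1 mutant and 18.4, 16.9, 16.6 and 19.7 CPM in Hdac2 mutant libraries. The copy thus fell by 0.98 ± 0.06 and 0.99 ± 0.07 on the log2 scale, and its share of the counts of both genes fell from 14.9% to 16.2% in control to 7.35% to 8.49% in the mutants. Summed, the 2 genes had 248, 225, 215 and 229.8 CPM in control, 232, 242, 233 and 229.7 CPM in Hdac1 mutant and 240.0, 230.3, 219.6 and 232 CPM in Hdac2 mutant libraries. The summed log2 fold change was 0.04 ± 0.04 (adjusted p = 0.37) in Hdac1 mutant and 0.02 ± 0.04 (adjusted p = 0.73) in Hdac2 mutant enteroids, with intervals of 2 SE from -0.04 to 0.12 and from -0.06 to 0.09. Summing the counts was chosen after their values were seen. How reads that match both genes were assigned is not given in the sources used here, and its part in the rise of Pcna was not tested. Over all genes tested on chromosome 19, the median log2 fold change was -0.52 in Hdac1 mutant and -0.51 in Hdac2 mutant enteroids. The part of that shift in the fall of Pcna-ps2 was not tested.

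**Figure D4:**
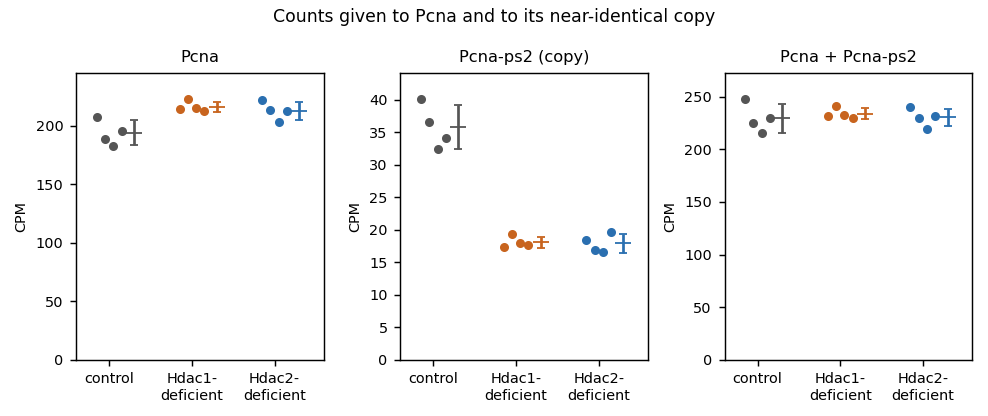
CPM of Pcna, of its pseudogene copy Pcna-ps2 and of both summed in each library (points), with the mean and SD of 4 libraries beside them and each axis starting at 0. Pcna is slightly higher and Pcna-ps2 about 2-fold lower in the mutants, and the summed counts of the 3 groups overlap.

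Rfc3 fell most among the loader genes, from 47.0, 43.6, 43.2 and 41.3 CPM in control to 26.3, 30.5, 32 and 29.0 CPM in Hdac1 mutant and 29.0, 29.4, 30.2 and 26.1 CPM in Hdac2 mutant libraries. The log2 fold changes were -0.56 ± 0.06 (adjusted p = 3.9e-08) and -0.60 ± 0.05 (adjusted p = 1.2e-09), with no overlap with control. Rfc1, the large subunit, fell by 0.35 ± 0.05 and 0.33 ± 0.04, and Rfc5 by 0.34 and 0.45. Rfc2 and Rfc4 fell by 0.16 and 0.25 in Hdac1 mutant and by 0.35 and 0.41 in Hdac2 mutant enteroids. In the direct comparison Rfc2, Rfc4 and Rfc5 were higher in Hdac1 mutant enteroids by 0.19, 0.16 and 0.10 (adjusted p = 3.1e-04, 0.012 and 0.039). Rfc4 shares a short exon stretch with Eif4a2 on the opposite strand, at up to 472.4 CPM, which fell like Rfc4 (-0.47 and -0.42). Rfc5 shares one with Wsb2 on the opposite strand, at up to 113.2 CPM (0.36 and 0.31). Rfc2 shares a longer one with Lat2, which had at most 0.821 CPM.

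All 6 polymerase and primase genes fell in both mutants, with a median of -0.49 in each, while 31.9% and 30.9% of all genes tested fell. Pola2, the regulatory subunit of polymerase alpha, had 102, 103, 99.5 and 98.0 CPM in control, 52.6, 53.3, 53.9 and 50.9 CPM in Hdac1 mutant and 47.7, 50.5, 49.5 and 52.7 CPM in Hdac2 mutant libraries. Its level was therefore close to a 2-fold decrease in every mutant library, with log2 fold changes of -0.92 ± 0.04 (adjusted p = 2.5e-14) and -1.0 ± 0.04 (adjusted p = 2.6e-15), the deepest of the 43 genes. Pola1, the catalytic subunit of the same enzyme, fell by 0.49 ± 0.06 and 0.50 ± 0.05.

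The primase subunits Prim1 (catalytic) and Prim2 bind polymerase alpha. Prim1 fell from 45.9 to 52.5 CPM in control to 38.8 to 43.4 CPM in Hdac1 mutant (-0.23 ± 0.05) and 34.1 to 36.4 CPM in Hdac2 mutant libraries (-0.46 ± 0.05), and it was higher in Hdac1 mutant enteroids in the direct comparison (0.22 ± 0.05, adjusted p = 5.7e-04). Prim2 fell by 0.48 in both. Across the 4 subunits of the polymerase alpha-primase complex the changes thus spanned 0.69 log2 units in Hdac1 mutant and 0.54 in Hdac2 mutant enteroids, compared with 0.07 and 0.09 in the MCM2-7 ring. Pold1, the catalytic subunit of polymerase delta, fell by 0.60 ± 0.04 and 0.58 ± 0.04, the first of them the largest fall among the members outside chromosome 19 in Hdac1 mutant enteroids. Pole, the catalytic subunit of polymerase epsilon, fell by 0.30 ± 0.04 and 0.48 ± 0.04 and was higher in Hdac1 mutant enteroids by 0.17 ± 0.04 (adjusted p = 0.0018).

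The 3 genes of replication protein A, which coats single-stranded DNA, fell together. Rpa1, Rpa2 and Rpa3 fell by 0.27, 0.25 and 0.26 in Hdac1 mutant enteroids and by 0.32, 0.42 and 0.45 in Hdac2 mutant enteroids, with standard errors of 0.03 to 0.05. Rpa2 and Rpa3 were higher in Hdac1 mutant enteroids by 0.17 and 0.18 in the direct comparison (adjusted p = 0.0014 and 0.0054).

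Fen1, the flap endonuclease that trims Okazaki fragments, had 111, 101, 101 and 96.5 CPM in control, 59.0, 66.0, 62.7 and 58.3 CPM in Hdac1 mutant and 55.6, 57.6, 53.2 and 54.7 CPM in Hdac2 mutant libraries. The mutant libraries were all far below control, and the log2 fold changes were -0.72 ± 0.05 (adjusted p = 6.4e-11) and -0.88 ± 0.04 (adjusted p = 1.0e-13). The fall was deeper in Hdac2 mutant enteroids by the direct comparison (0.15 ± 0.05, adjusted p = 0.0068), and the groups did not overlap. Fen1 shares exon sequence with Gm10143, an antisense gene of at most 1.37 CPM. Lig1, the ligase that seals the fragments, fell from 139 to 143 CPM in control to 106 ± 4.88 CPM (mean ± SD, n = 4) in Hdac1 mutant (-0.40 ± 0.04) and 98.0 to 99.9 CPM in Hdac2 mutant libraries (-0.50 ± 0.03).

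Pola2 (chromosome 19, 5940542 to 5964202, GRCm38) and Fen1 (chromosome 19, 10199132 to 10204169) are the only members on chromosome 19. Among all genes tested on that chromosome, the median log2 fold change was -0.52 in Hdac1 mutant and -0.51 in Hdac2 mutant enteroids, and 73.3% and 76.1% of them were lower, whereas on the other autosomes the median was 0.01 in both, and 30.4% and 29.2% were lower. The part of this chromosome-wide shift in the depth of the falls of Pola2 and Fen1 was not tested. Without these 2 genes, 38 and 40 of 41 members were lower, and the medians were again -0.30 and -0.42.

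All 5 genes of nucleotide supply fell in both mutants, against 31.9% and 30.9% of all genes tested. The subunits of ribonucleotide reductase, which makes deoxynucleotides, fell unequally. Rrm1, the large subunit, had 188, 193, 189.8 and 182 CPM in control, 141, 146, 141 and 134 CPM in Hdac1 mutant and 142, 147, 137 and 139 CPM in Hdac2 mutant libraries. Rrm2, the small subunit, had 104, 99.7, 99.7 and 99.0 CPM in control, 92.3, 97.4, 94.3 and 91.1 CPM in Hdac1 mutant and 94.2, 98.0, 96.7 and 88.0 CPM in Hdac2 mutant libraries. Both genes lay below control in every mutant library, but Rrm1 fell by 0.41 ± 0.03 and 0.40 ± 0.03 and Rrm2 by only 0.09 ± 0.03 (adjusted p = 0.033) and 0.08 ± 0.04 (adjusted p = 0.048). The Rrm2 calls are lost when control library 1, Hdac1 mutant library 1, 3 or 4, or, in the Hdac2 comparison, control library 1, 2 or 3 or Hdac2 mutant library 1 or 4 is left out (adjusted p up to 0.088 and 0.16).

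Tk1, the thymidine kinase of the salvage pathway, fell by 0.41 ± 0.04 and 0.57 ± 0.04. Tyms, which makes thymidylate, fell by 0.16 ± 0.05 and 0.34 ± 0.05, and Dut, which breaks down dUTP, by 0.28 ± 0.05 and 0.45 ± 0.04. All 3 were higher in Hdac1 mutant than in Hdac2 mutant enteroids, Tk1 by 0.15 (adjusted p = 0.0047), Tyms by 0.18 (adjusted p = 0.013) and Dut by 0.18 (adjusted p = 0.0030).

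Dnmt1, the maintenance DNA methyltransferase, had 202, 228, 231 and 226 CPM in control, 177, 171, 168 and 159.8 CPM in Hdac1 mutant and 156, 159.7, 163 and 165 CPM in Hdac2 mutant libraries. It fell by 0.38 ± 0.04 and 0.46 ± 0.04 without overlap. Uhrf1, which brings DNMT1 to newly copied DNA, had 155, 156, 159.7 and 149.5 CPM in control, 150.0, 146, 144 and 129 CPM in Hdac1 mutant and 122, 132, 124 and 121 CPM in Hdac2 mutant libraries. The Hdac1 mutant libraries overlapped with control, the Hdac2 mutant libraries lay below control, and only Hdac1 mutant library 4 lay within the range of the Hdac2 mutant group. Uhrf1 fell by 0.11 ± 0.04 (adjusted p = 0.023) and 0.31 ± 0.03 (adjusted p = 9.3e-08), and the direct difference was 0.19 ± 0.04 (adjusted p = 3.3e-04). The Hdac1 mutant call is lost without control library 3 or Hdac1 mutant library 4 (adjusted p = 0.062 and 0.093).

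Both genes of the histone chaperone CAF-1 fell, Chaf1a by 0.25 ± 0.04 and 0.34 ± 0.04, and Chaf1b by 0.17 ± 0.06 and 0.36 ± 0.06. Without control library 1 the Hdac1 mutant call of Chaf1b is lost (-0.11, adjusted p = 0.052). Chaf1b was higher in Hdac1 mutant enteroids by 0.19 ± 0.06 (adjusted p = 0.0094). Chaf1a overlaps Ubxn6 on the opposite strand, whose log2 fold changes of 0.17 and 0.12 had the other sign.

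Compared with each other, the mutants differed in 21 of 43 replication genes, 20 higher and 1 lower in Hdac1 mutant enteroids, where 22.3% of all genes tested were higher and 23.7% lower. The median difference was 0.09 on the log2 scale (from -0.20 for Orc6 to 0.36 for Gins3), and no member differed by 2-fold, against 5.62% of all genes tested. The CPM of the mutant groups did not overlap for 14 members with the Hdac1 mutant libraries higher (19.7% of all genes tested) and for 1 member with them lower (22%). Among the 11 licensing genes 3 were higher, Cdt1, Mcm5 and Mcm6, by 0.13, 0.11 and 0.09. The 22 genes that did not pass the test differed by -0.11 to 0.13, and Pola1, Prim2, Rrm1, Rrm2 and Pold1 were within 0.02 of 0, with standard errors of 0.03 to 0.06. Leaving out single libraries moved the count of higher members between 16 and 25, the largest without Hdac1 mutant library 4.

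Of the 20 higher calls, 7 depended on single libraries. The call of Mcm6 is lost without Hdac1 mutant library 1, 2 or 3 or Hdac2 mutant library 1, 3 or 4 (adjusted p = 0.065 to 0.11), and that of Rfc5 without Hdac1 mutant library 2 or 3 or Hdac2 mutant library 1, 3 or 4 (adjusted p = 0.051 to 0.12). The Rfc5 call is also lost with DESeq2 (adjusted p = 0.055) and with no filter on low counts (0.051). Cdt1 loses it without Hdac1 mutant library 1 or Hdac2 mutant library 3 (adjusted p = 0.074 and 0.068), Lig1 without Hdac1 mutant library 1 or 2 (0.066 and 0.062), Tyms without library 3 of either mutant (0.059 and 0.053), Mcm5 without Hdac1 mutant library 2 (0.053) and Rfc4 without Hdac2 mutant library 2 (0.077). The direct differences of these genes stayed at 0.08 or more.

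**Figure D5:**
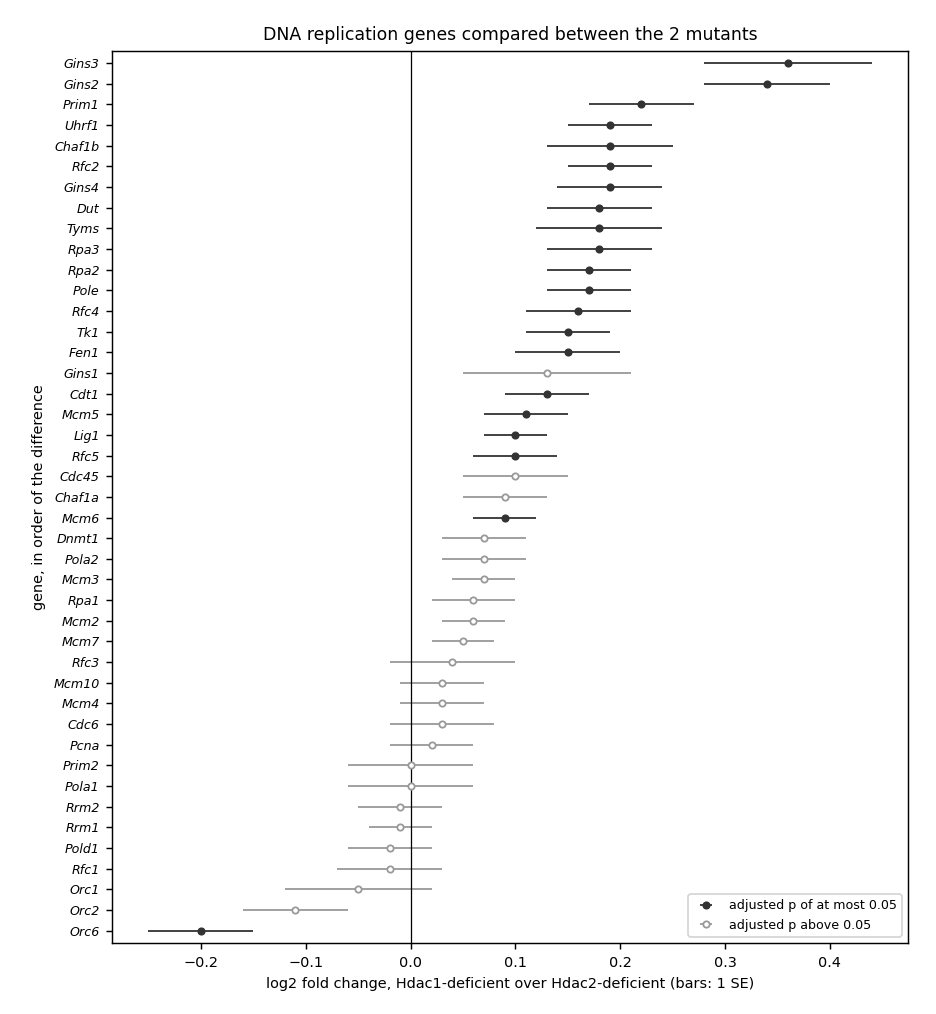
Log2 fold change of Hdac1-deficient over Hdac2-deficient enteroids (horizontal axis, bars of 1 SE) of the 43 genes in order of that difference, with filled points for an adjusted p of at most 0.05. The filled points run from Gins3 at 0.36 down to Mcm6 at 0.09 on the right, and Orc6 at -0.20 stands alone on the left.

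Most of the other genes of the pathway fell as well. Of 95 further genes, 57 fell and 11 rose in Hdac1 mutant enteroids, and of the 94 tested, 81 fell and 5 rose in Hdac2 mutant enteroids, with medians of -0.20 and -0.30. Among all genes tested, 31.9% fell and 32.7% rose in Hdac1 mutant enteroids, and 30.9% fell and 31.4% rose in Hdac2 mutant enteroids. Of 13 other licensing and firing genes 9 and 12 fell, among them Mtbp (-0.58 and -0.31), a partner of Treslin in origin firing, Ticrr, which encodes Treslin (-0.44 and -0.47), and Topbp1, which binds Treslin (-0.29 and -0.47). Donson, which helps to assemble the helicase, rose in Hdac1 mutant enteroids (0.35 ± 0.06, adjusted p = 2.0e-05) and stood at -0.02 in Hdac2 mutant enteroids, a difference of 0.36 by the direct test (adjusted p = 1.4e-05). Of 23 other fork genes 18 and 23 fell. The largest falls in Hdac1 mutant enteroids were those of Rnaseh2c, a subunit of RNase H2 (-0.78 and -1.05), and Pold4, a small subunit of polymerase delta (-0.74 and -0.30), both on chromosome 19. Rnaseh2b, the partner subunit of Rnaseh2c, stood at 0.01 (adjusted p = 0.91) in Hdac1 mutant enteroids and fell by 0.47 in Hdac2 mutant enteroids, a difference of 0.48 ± 0.08 by the direct test (adjusted p = 2.8e-05).

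Of 13 other nucleotide supply genes 9 and 11 fell, among them Samhd1, which degrades deoxynucleotides (-0.60 and -0.33), and Dctd (-0.48 and -0.40). The shares of all genes tested that fell were 31.9% and 30.9%. Rrm2b, another small subunit of ribonucleotide reductase, stood at 0.13 (adjusted p = 0.33) in Hdac1 mutant enteroids and rose by 0.42 in Hdac2 mutant enteroids (adjusted p = 0.0012). Of 8 other histone deposition genes 6 and 8 fell, with Hells, a chromatin remodeller encoded on chromosome 19, at -0.89 and -1.01. Of 12 fork checkpoint genes 6 fell in Hdac1 mutant enteroids. In Hdac2 mutant enteroids, where Atrip did not enter the test, 10 of 11 fell. Rad9a, on chromosome 19, stood at -0.91 in both, Cdc25b at -0.76 and -0.64 and Chek1, the main kinase of the S phase checkpoint, at -0.54 and -0.65. Atrip, at 0.147 to 0.69 CPM in all libraries, was called higher in Hdac1 mutant enteroids (0.98 ± 0.36, adjusted p = 0.023), but not without control library 1 or 3 or Hdac1 mutant library 3 or 4, nor with DESeq2 (adjusted p = 0.062). Wee1 was the other fork checkpoint gene called higher in Hdac1 mutant enteroids (0.24 ± 0.04, adjusted p = 1.8e-05). In Hdac2 mutant enteroids Wee1 was lower (-0.12, adjusted p = 0.013).

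The 26 cyclins, kinases and E2F factors of the G1/S transition were mixed, with 9 lower and 7 higher in Hdac1 mutant enteroids, against 31.9% and 32.7% of all genes tested. In Hdac2 mutant enteroids 17 were lower and 4 higher, against 30.9% and 31.4%. E2f1, an activator of replication genes, had 28.8, 28.7, 27.6 and 27.4 CPM in control, 19.7, 20.7, 20.2 and 18.4 CPM in Hdac1 mutant and 16.1, 17.8, 19.4 and 18.6 CPM in Hdac2 mutant libraries. It fell by 0.50 ± 0.05 and 0.64 ± 0.06. E2f2, another activator, had 37.9, 38.5, 39.2 and 41.2 CPM in control, 91.5 to 102 CPM in Hdac1 mutant and 67.1, 64.4, 63.1 and 65.7 CPM in Hdac2 mutant libraries, and it rose by 1.32 ± 0.04 and 0.74 ± 0.04. The 3 groups did not overlap for E2f2, whose direct difference was 0.57 ± 0.04 (adjusted p = 3.4e-12). Myc, a growth regulator of crypt cells, fell by 0.61 ± 0.04 and 0.54 ± 0.03. Its relative Mycn rose from 0.368 to 0.672 CPM in control to 2.36 to 2.79 CPM and 3.46 to 3.93 CPM.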

How the data were processed

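The 12 RNA-Seq libraries of poly(A) RNA from cultured enteroids were grouped by genotype as labelled. Paired reads of 100 nucleotides were aligned by the authors to GRCm38 with STAR (2.4.0f1 in the submitters' processing notes). The counting program and its strand setting are not given in the sources used here. The authors deposited 1 table for each mutant, with whole-number counts per gene for the mutant and the same 4 control libraries, and list only genes whose counts sum to 10 or more. The authors also deposited normalized values, a score scaled for each library, which were not used in any test. The deposited log2 fold changes, average log2 CPM and p-values, raw and adjusted, are the authors' own comparisons and were not used.

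Counts were tested with edgeR (4.0.16, R 4.3.3), with TMM factors, filterByExpr, robust quasi-likelihood F tests and Benjamini-Hochberg adjustment over all genes tested. These were 14246 genes for Hdac1 and 14007 for Hdac2, each in 8 libraries, and 14510 for the direct comparison in 12 libraries. Calls were made at adjusted p values up to 0.05. CPM used TMM factors of the 12 libraries. Errors are standard errors of the log2 fold change. Depth was 20693200 to 30658628 counts per library. Exon lengths and positions came from GENCODE M21 and promoters from RefSeq. The script was tested on simulated counts.

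The 43 members and all gene and marker lists were chosen with earlier results of these data known. The genes named are core members of each role, the 3 highest and 3 lowest called members of each comparison, up to 3 of the largest called genes of each list of other pathway genes, and other members to account for all. Wee1 was named in addition, as the other fork checkpoint gene called higher in Hdac1 mutant enteroids. No same-numbered pair of libraries from different groups had deviations correlated above 0.1 (from -0.0455 to 0.0913), so the numbers were not taken to pair libraries. Alternatives were DESeq2 (1.42.0), other scaling factors, other filters, a replicate block, chromosomes X, Y and 19 left out, other sets of libraries in the fit, an adjusted p of at most 0.01, each library left out, and, added after seeing the data, Pcna and Pcna-ps2 counts summed. All 12 libraries entered the main tests.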

Additional observations from a re-analysis of the deposited data

Results flagged for a closer look

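In 129 groups of 4 libraries, 1 for each of the 43 genes in each genotype, 4 had a library far from the others, with a gap to the nearest library beyond Dixon's critical value. Chance flags about 1 in 20 groups. Mcm2 stood at 149.7 CPM in control library 3 against 146.0 to 146.1 CPM in the others, and Pole at 50.6 CPM in control library 1 against 55.6 to 56.0 CPM. Rrm2 stood at 103.7 CPM in control library 1 against 99.0 to 99.7 CPM, and Tk1 at 60.7 CPM in Hdac2-deficient library 2 against 53.6 to 54.8 CPM. The Mcm2, Pole and Tk1 calls against control held without these libraries, and those of Rrm2 did not.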

How the results depend on the processing

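Under every alternative run the replication genes were mostly lower in both mutants, with 36 to 40 and 39 to 42 members called lower and medians from -0.32 to -0.29 and from -0.45 to -0.41. In Hdac2-deficient enteroids the median was -0.45 with library size alone. Members past 2-fold in Hdac2-deficient enteroids went from 0 to 1 (Pola2) with upper-quartile factors, with library size alone, with no filter on low counts and with all 12 libraries in 1 fit (1 each), and lay between 0 and 1 when 1 library was left out. All genes past 2-fold came to 2335 and 1792 with no filter, against 1507 and 1162. With Pcna and Pcna-ps2 summed, 0 members were higher in either mutant. In the direct comparison, 13 members were higher at an adjusted p of at most 0.01, 26 with upper-quartile factors and 25 with library size alone, against 20, and leaving out 1 library gave 1 to 2 lower members. Rnaseh2b in Hdac1-deficient enteroids turned to -0.00 with chromosomes X, Y and 19 left out and with all 12 libraries in 1 fit, and ranged from -0.04 to 0.09 when 1 library was left out. Likewise Gins4 ranged from -0.06 to 0.01 and, in Hdac2-deficient enteroids, Donson from -0.05 to 0.02. None of these 3 passed the test in any setting. With the replicate block, 38 and 42 members were lower, Gins2 (adjusted p = 0.060) and Rrm2 (0.059) losing their calls in Hdac1-deficient enteroids, and 20 were higher in the direct comparison. With DESeq2, Gins2 in Hdac1-deficient (0.051) and Rrm2 in Hdac2-deficient enteroids (0.084) lost theirs, as did Rfc5 in the direct comparison (0.055) and, outside the members, Atrip in Hdac1-deficient enteroids (0.062). Rfc5 also lost its call with no filter on low counts (0.051), and Rrm2 in Hdac2-deficient enteroids with a mean of at least 10 counts, where its adjusted p rounds to 0.05. The causes were not tested. Protein motifs were not run. Counts of Chaf1a, Gins2, Rfc2, Fen1 and, in shorter stretches, Orc6 and others overlap genes on the opposite strand, and Gins1 and Gins3 have the largest standard errors among the members (0.08).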

Other observations

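Lineage markers other than those of stem cells and enterocytes were mixed in Hdac1-deficient enteroids and mostly higher in Hdac2-deficient enteroids. Among all genes tested, 32.7% rose and 31.9% fell in Hdac1-deficient enteroids, and 31.4% rose and 30.9% fell in Hdac2-deficient enteroids. Of 6 Paneth cell markers tested, 2 rose and 1 fell in Hdac1-deficient and 5 rose in Hdac2-deficient enteroids. Of 7 goblet cell markers, 3 rose and 2 fell in Hdac1-deficient enteroids and all 7 rose in Hdac2-deficient enteroids, with medians of -0.04 and 0.53. Of 8 enteroendocrine markers, 6 rose and 1 fell in Hdac1-deficient and 5 rose and 2 fell in Hdac2-deficient enteroids. Of 10 epithelial markers, 5 rose and 2 fell in Hdac1-deficient and 6 rose in Hdac2-deficient enteroids. The part of these shifts in the levels of the replication genes was not tested.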
